A study of Mus musculus with 4 samples.

Results

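The transcription factors that carry the circadian clock's rhythm to other genes were examined in mouse lung tumours: the PAR bZIP activators Dbp, Tef and Hlf, the bZIP repressor Nfil3, the basic helix-loop-helix repressors Bhlhe40 and Bhlhe41, and the nuclear receptor Rora. These 7 genes were taken by their symbols as a functional group, with earlier results of these data known. All 7 were found among the 24391 genes listed in each sample, and all 7 passed the count filter that left 16001 genes for testing. RNA sequencing had been carried out on 4 tumour samples, 2 per group. One group, labelled K-Ras, came from mice with a Cre-activatable oncogenic allele (K-RasLSL-G12D, silent until a stop cassette is removed). The other, labelled K-Ras Mll4-/-, came from mice that carried the same allele and floxed Mll4 (K-RasLSL-G12D;Mll4fl/fl). Mll4, now named Kmt2d, encodes an enhancer histone H3 lysine methyltransferase. Both groups therefore share the K-Ras mutation, and the labelled difference between them is the loss of Mll4. The tumours were dissociated, red cells were lysed, and leukocytes bearing CD45 were depleted with magnetic beads before RNA extraction. How Cre was delivered, the age of the mice, the hour at which tumours were taken and whether replicates came from separate mice are not given in the sources used here, so the p-values below measure only the spread between these samples, which may be technical.

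In the circadian clock, the activators CLOCK and BMAL1 drive their own repressors, the PER and CRY proteins, through E-box elements. The same elements drive Dbp and related PAR bZIP genes, whose proteins then activate genes with D-box elements, while NFIL3 occupies D-boxes as a repressor. BHLHE40 and BHLHE41 (DEC1 and DEC2) repress at E-boxes and are also known targets of hypoxia-inducible factor. RORA activates, and the REV-ERB receptors repress, at shared ROR elements such as those of Bmal1 (Arntl) and Nfil3. Several of these factors have roles outside the clock as well: Nfil3 and Rora are needed by innate lymphoid cells, and Bhlhe40 and Bhlhe41 are expressed in alveolar macrophages.

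The elements through which these factors are regulated were looked for in the 250 bases before annotated starts, with sequences from RefSeq on GRCm38.p6. A start was given for 6 of the 7 genes, in 7 windows, as Tef has 2. None was given for Bhlhe40, which was therefore not searched. The E-box CACGTG, which is its own reverse complement, occurred in 3 of these 7 windows, both of Tef and that of Bhlhe41, and in 6.02% of the 32851 windows of all genes. The related form CACGTT, searched on both strands, was in none of the 7 and in 3.85% of all windows. The core of the hypoxia response element, ACGTG, on either strand, was in 5 of the 7 windows, those of Dbp, Rora, Tef and Bhlhe41, and in 16.6% of all windows. In Tef and Bhlhe41 it lies within the E-box, which contains it. The D-box forms TTATGTAA and TTACGTAA, searched on both strands, were in none of the 7 and in 0.819% and 0.113% of all windows. The ROR element core AGGTCA, on either strand, was in the window of Nfil3 and in 14% of all windows. A cyclic AMP response element, TGACGTCA, lay in the window of Hlf and in 1.55% of all windows. Such matches describe letters only. Windows with the other elements are shown 5′ to 3′ on the gene's strand, with matched letters in capitals. Those of Tef at its downstream start (chr15:81811164-81811413, plus strand) and of Hlf (chr11:90390918-90391167, minus strand) are given whole, as a PAR bZIP gene with groups that did not overlap and a PAR bZIP gene with groups that did. For Tef at its upstream start (chr15:81802534-81802563, plus strand), Bhlhe41 (chr6:145865556-145865585, minus strand) and Nfil3 (chr13:52981040-52981069, minus strand), 30 bases around the element are given.
Tef downstream start: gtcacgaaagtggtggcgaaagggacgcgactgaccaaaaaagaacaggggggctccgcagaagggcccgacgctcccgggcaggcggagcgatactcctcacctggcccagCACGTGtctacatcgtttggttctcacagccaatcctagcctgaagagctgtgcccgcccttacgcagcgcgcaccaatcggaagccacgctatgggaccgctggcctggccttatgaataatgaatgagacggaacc
Hlf: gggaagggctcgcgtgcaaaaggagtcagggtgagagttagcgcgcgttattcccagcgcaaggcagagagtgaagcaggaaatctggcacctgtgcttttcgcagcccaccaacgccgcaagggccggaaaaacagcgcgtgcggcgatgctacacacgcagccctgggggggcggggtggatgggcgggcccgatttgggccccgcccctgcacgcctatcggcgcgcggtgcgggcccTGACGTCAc
Tef upstream start: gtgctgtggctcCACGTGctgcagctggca
Bhlhe41: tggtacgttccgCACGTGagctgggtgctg
Nfil3: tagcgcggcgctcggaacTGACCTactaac

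Reads assigned to genes ranged from 26683033 to 36677987 per sample, and levels are given as CPM, that is, reads per library of equal size after TMM correction. Of the 16001 genes tested, 6 (0.0375%) had an adjusted p under 0.05 in edgeR's quasi-likelihood test, the threshold for a call used throughout. The targeted gene, Kmt2d, was at 395 and 526 CPM in K-Ras and 367 and 317 CPM in K-Ras Mll4-/- tumours (log2 fold change -0.43, edgeR adjusted p = 0.302, or -0.02 with offsets for GC content and length). Counts per whole gene cannot show whether the floxed exons were lost, so the genotype is taken from the labels. Markers of alveolar type 2 cells, the surfactant-producing cells of the lung, were abundant in all 4 samples, with a summed level of 18607 to 30543 CPM over 8 genes. The 7 pan-leukocyte markers were still present after depletion, at 703.6 to 1570 CPM in sum.

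None of the 7 clock output factors was called by edgeR's quasi-likelihood test. None was called by its likelihood ratio test, which called 9.39% of all genes, by DESeq2, which called 10.4%, by limma-voom, which called 0%, or by a quasi-likelihood fit that took replicate numbers as blocks, which called 1.36%. At an unadjusted p under 0.05 there were 4 in the quasi-likelihood test, against 21.8% of all tested genes, and these were Nfil3, with the higher level in K-Ras Mll4-/- tumours, and Tef, Dbp and Rora, with the lower level there. The same 4 were the members whose groups did not overlap, against 58.3% of all genes: 1 was higher in both K-Ras Mll4-/- samples, against 29.9% of all genes, and 3 were lower, against 28.5%. With total count scaling the same 4 genes had groups that did not overlap. Hlf, Bhlhe40 and Bhlhe41 overlapped between the groups. With 2 samples against 2, an exact two-sided permutation test of a single gene cannot give a p below 0.333.

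**Figure D1:**
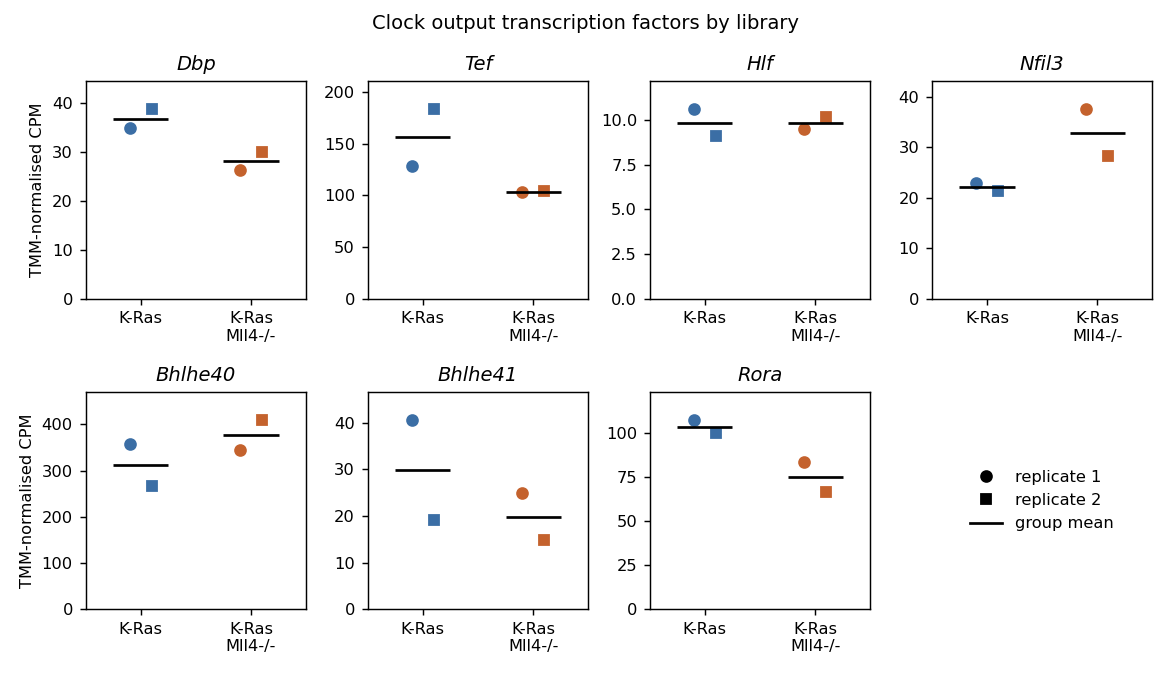
Level of each of the 7 genes in each library, in TMM-normalised CPM on axes that start at 0 (circles, replicate 1; squares, replicate 2; bars, group mean). Dbp, Tef and Rora lie lower in both K-Ras Mll4-/- libraries than in both K-Ras libraries, Nfil3 lies higher, and the groups overlap for the others.

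Dbp, the PAR bZIP factor with the strongest daily rhythm in many tissues, was at 34.9 and 38.6 CPM in the K-Ras samples and at 26.2 and 29.9 CPM in the K-Ras Mll4-/- samples. The group ranges were close but apart, and replicate 2 was the higher sample in each group. The means were 36.7 ± 2.62 and 28.0 ± 2.65 CPM (SD, n = 2 each), a level 1.31-fold lower without Mll4. The log2 fold change was -0.39 (SE 0.15, 95% interval -0.78 to -0.002, edgeR adjusted p = 0.229). With offsets for GC content and length it was -0.14. Dbp's longest transcript had the highest GC content of the 7, at 61.6%. In the GENCODE M21 annotation, 18% of its exon bases also lie in exons of Sphk2 on the other strand. As the strand setting of the counting is not given, it is not known which reads there were counted for Dbp. Sphk2 had 1622 and 2420 reads in the K-Ras samples and 1300 and 1634 in the K-Ras Mll4-/- samples, before scaling. The part of this overlap in Dbp's level was not tested.

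Tef had 129 and 183 CPM in the K-Ras samples against 103 and 104 CPM in the K-Ras Mll4-/- samples. The K-Ras Mll4-/- samples were nearly equal, and the spread came from K-Ras replicate 2. The means were 156 ± 38.4 and 103 ± 0.965 CPM (SD, n = 2 each), a level 1.51-fold lower without Mll4. The log2 fold change was -0.59 (SE 0.20, 95% interval -1.13 to -0.05, edgeR adjusted p = 0.213). It was -0.33 without K-Ras replicate 2 and -0.39 with the replicate number as a block together with the GC and length offsets. In that same library the airway markers were also far above the rest: the 7 ciliated markers summed to 786 CPM there, against 139.5 CPM in K-Ras replicate 1 and 78.5 and 81.9 CPM in the K-Ras Mll4-/- samples. The 6 club cell markers summed to 4927 CPM there, against 823 to 1247 CPM in the other 3. At an unadjusted edgeR p under 0.05, 7 ciliated and 1 club cell marker were lower in K-Ras Mll4-/- tumours, against 10.4% of all genes. None was higher at that p. Without overlap, 7 ciliated and 3 club cell markers were lower there, against 28.5% of all genes, and none was called. The median log2 fold changes were -2.38 (ciliated) and -1.28 (club), or -0.84 and -0.17 without K-Ras replicate 2. The part of airway cells in Tef's level was not tested. In bulk tumour RNA, fewer cells of a type and less RNA per cell cannot be told apart.

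Hlf was the PAR bZIP member with the least difference. Its levels were 10.6 and 9.10 CPM in the K-Ras samples and 9.48 and 10.2 CPM in the K-Ras Mll4-/- samples, from 249 to 329 reads. Both K-Ras Mll4-/- values lay between the K-Ras values. The log2 fold change was -0.002 (SE 0.20, edgeR adjusted p = 0.995), and its 95% interval, -0.54 to 0.53, still includes differences as large as that of Dbp or Rora. Whether Hlf differed from Dbp and Tef in its response was not tested.

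Nfil3, the repressor that competes with the PAR bZIP factors for D-boxes, was at 23.0 and 21.4 CPM in the K-Ras samples and at 37.6 and 28.3 CPM in the K-Ras Mll4-/- samples. Of the 7 it alone was higher throughout the K-Ras Mll4-/- group, and here the K-Ras samples were the tight group. The means were 22.2 ± 1.13 and 32.9 ± 6.54 CPM (SD, n = 2 each), a level 1.49-fold higher without Mll4. The log2 fold change was 0.57 (SE 0.19, 95% interval 0.07 to 1.07, edgeR adjusted p = 0.203). It was 0.35 without K-Ras Mll4-/- replicate 1. The 8 markers of natural killer and innate lymphoid cells, in which Nfil3 acts, summed to 203 and 204.6 CPM in the K-Ras samples and to 301.6 and 381 CPM in the K-Ras Mll4-/- samples. Most of that sum came from Areg, a growth factor gene that epithelial cells also express. Of the 8 markers, 1 was higher at an unadjusted p under 0.05, against 11.4% of all genes. Without overlap 2 were higher and 3 lower, close to the 29.9% and 28.5% of all genes, and none was at 0 in all 4 samples. The part of these cells in Nfil3's level was not tested.

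The balance between activators and repressor was then described within each library, as a ratio of read counts that no scaling between libraries can change. There were 1.52 and 1.81 Dbp reads per Nfil3 read in the K-Ras samples and 0.697 and 1.06 in the K-Ras Mll4-/- samples. For Tef the ratios were 5.61 and 8.57 against 2.74 and 3.68. For Hlf they were 0.461 and 0.426 against 0.253 and 0.360. All 3 ratios were lower throughout the K-Ras Mll4-/- group, with mean differences of -0.95, -1.13 and -0.56 on the log2 scale. All 3 share the Nfil3 count as denominator, so they are not separate observations. The separation for Dbp and Tef had to follow from the levels given above, lower for each of them and higher for Nfil3. That for Hlf mostly restates the Nfil3 log2 fold change of 0.57, as Hlf itself was at -0.002. The share of all gene pairs with ratios that do not overlap was not computed. The transcripts differ in length, so a ratio above 1 does not rank the genes. Between the activators, the ratio of Dbp to Tef reads overlapped, at 0.271 and 0.211 against 0.255 and 0.287. The ratio of Hlf to Tef reads did not overlap and was higher in the K-Ras Mll4-/- group, at 0.0822 and 0.0497 against 0.0923 and 0.0977. It mostly restates the Tef log2 fold change of -0.59, and K-Ras replicate 2 held the lowest ratio.

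**Figure D2:**
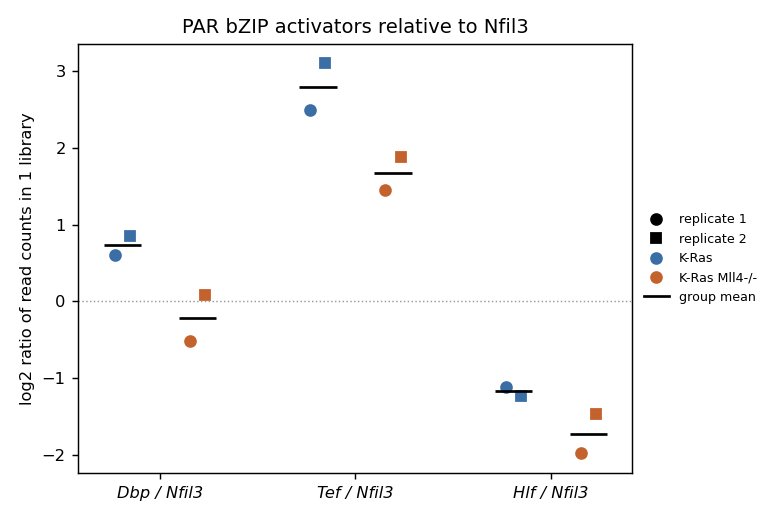
Log2 ratio of Dbp, Tef and Hlf reads to Nfil3 reads within each library (circles, replicate 1; squares, replicate 2; bars, group mean). For each gene both K-Ras Mll4-/- libraries lie below both K-Ras libraries, and the mean difference is largest for Tef, at -1.13.

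Bhlhe40 was at 357 and 268 CPM in the K-Ras samples and at 344 and 409 CPM in the K-Ras Mll4-/- samples. The groups overlapped, and the lowest value was that of K-Ras replicate 2. Its log2 fold change of 0.27 (SE 0.21, 95% interval -0.29 to 0.83, edgeR adjusted p = 0.495) was smaller than the spread between the K-Ras replicates. It was 0.06 without K-Ras replicate 2, 0.49 without K-Ras replicate 1 and 0.13 without K-Ras Mll4-/- replicate 2.

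Bhlhe41, its paralogue, was at 40.6 and 19.1 CPM in the K-Ras samples and at 24.9 and 14.8 CPM in the K-Ras Mll4-/- samples. Replicate 1 was the higher sample of each group, and the groups overlapped. The SD of log2 CPM was 0.76 in the K-Ras group, above that of 88.5% of tested genes, and 0.53 in the K-Ras Mll4-/- group, above that of 89.6%. The log2 fold change was -0.59 (SE 0.46, 95% interval -1.81 to 0.63, edgeR adjusted p = 0.491). It turned to 0.05 without K-Ras replicate 1, was -1.05 without K-Ras replicate 2, and was -1.01 and -0.27 without K-Ras Mll4-/- replicates 1 and 2. The 8 alveolar macrophage markers also differed between replicates, with sums of 6619 and 681 CPM in the K-Ras samples and 3956 and 986 CPM in the K-Ras Mll4-/- samples. None of these markers was at 0 in all samples, and none had an unadjusted p under 0.05. The pan-leukocyte markers summed to 1545 and 704 CPM against 1570 and 1024 CPM, again with replicate 1 the higher in each group. The part of these cells in Bhlhe41's level was not tested. In GENCODE M21, 19% of the exon bases of Bhlhe41 overlap an antisense gene, Gm43909.

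Rora was at 107 and 99.6 CPM in the K-Ras samples and at 83.7 and 66.7 CPM in the K-Ras Mll4-/- samples. The groups did not overlap. The gap between them was wider than the difference between the K-Ras samples but narrower than that between the K-Ras Mll4-/- samples. The means were 103 ± 5.32 and 75.2 ± 12.0 CPM (SD, n = 2 each), a level 1.38-fold lower without Mll4. The log2 fold change was -0.46 (SE 0.16, 95% interval -0.88 to -0.04, edgeR adjusted p = 0.214). Among the members with groups that did not overlap, Rora was the one whose value moved by less than 1.5 times under every alternative run, from -0.63 to -0.32. The 8 endothelial markers summed to 5225 and 5192 CPM in the K-Ras samples and 3702 and 2866 CPM in the K-Ras Mll4-/- samples, the same order of the 4 libraries as for Rora. Pericyte and smooth muscle markers had that order too, at 314 and 249 against 239 and 207 CPM. The natural killer and innate lymphoid markers, mostly Areg, ran the other way, at 203 and 204.6 against 301.6 and 381 CPM. Of the endothelial markers 6 were lower with an unadjusted edgeR p under 0.05, against 10.4% of all genes, and none was called. The 8 fibroblast markers summed to 2506 and 1172 against 866 and 885 CPM, with 3 lower at that p, against the same 10.4%, and none called. No marker of these lists was at 0 in all samples, and the part of these cells in Rora's level was not tested.

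**Figure D3:**
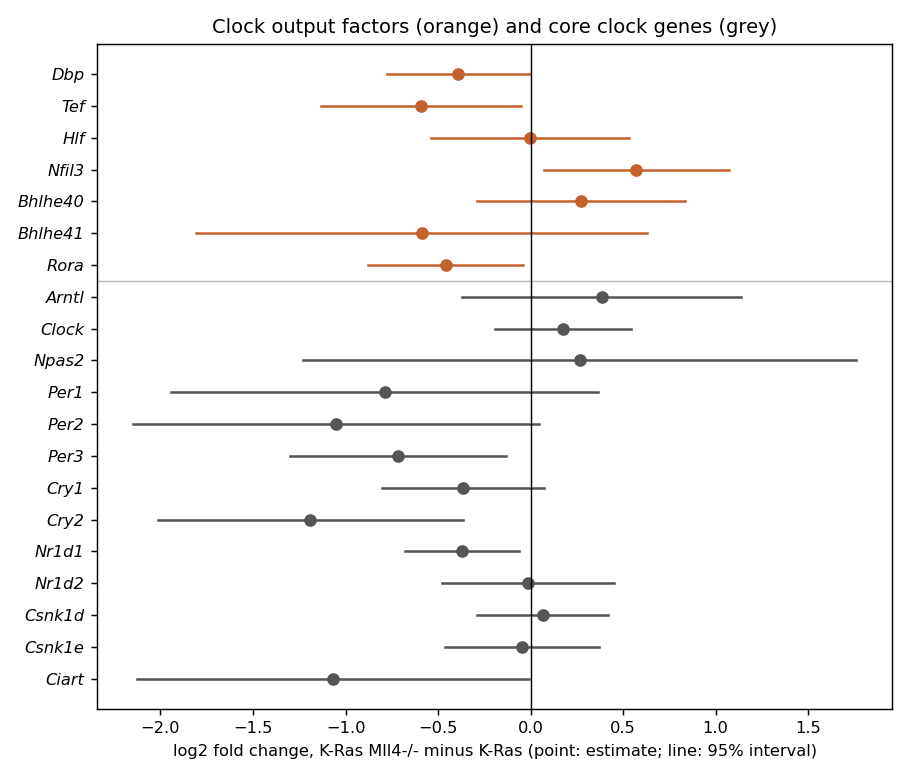
Log2 fold change, K-Ras Mll4-/- minus K-Ras, of the 7 clock output factors (orange) and the 13 core clock genes (grey), with the 95% interval of each gene from the quasi-likelihood fit, not adjusted for the number of genes. Intervals of Dbp, Tef and Rora lie below 0 and that of Nfil3 above, and none of the genes passed the adjusted threshold.

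Levels were compared between the genes per kilobase of the longest GENCODE M21 transcript. Bhlhe40 was the most abundant, at 100.4 ± 20.4 CPM per kb in K-Ras and 121 ± 14.7 in K-Ras Mll4-/- tumours (SD, n = 2 each), above 97.4% and 97.6% of the 15863 tested genes with a length. In K-Ras tumours it was followed by Tef at 35.4 ± 8.72 and Dbp at 20.0 ± 1.43 CPM per kb. Nfil3 at 10.9 ± 0.556 and Rora at 9.51 ± 0.489 CPM per kb came next. Bhlhe41 at 4.87 ± 2.47 and Hlf at 1.75 ± 0.187 CPM per kb were the lowest. In K-Ras Mll4-/- tumours the order was the same but for Nfil3, at 16.2 ± 3.23, and Dbp, at 15.3 ± 1.44 CPM per kb, which changed places. These neighbours did not differ beyond their spread in that group, where Nfil3 was at 18.5 and 14.0 and Dbp at 14.2 and 16.3 CPM per kb. In the K-Ras group, Dbp was above Nfil3 in both samples, and every other pair of neighbours in either order had ranges that did not overlap. With the merged length of all annotated exons in place of the longest transcript, Nfil3 in K-Ras Mll4-/- tumours, at 16.2 CPM per kb, also lay above Tef, at 13.1.

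The core clock genes, with activators and repressors of the loop together, were taken as a list of 13. None was called, 4 were lower at an unadjusted edgeR p under 0.05 against 10.4% of all tested genes, and 0 were higher. The 4 were Cry2, Per3, Nr1d1 and Ciart, of which Per3, Nr1d1 and Ciart are, like Dbp, E-box targets that follow the same daily phase. The list's median log2 fold change was -0.36, against -0.01 over all genes tested, and it was -0.19 without K-Ras replicate 2 and -0.18 with GC and length offsets. Cry2, a repressor of CLOCK and BMAL1, was at 45.0 and 80.9 CPM in K-Ras and 28.0 and 27.1 CPM in K-Ras Mll4-/- tumours (log2 fold change -1.19, edgeR adjusted p = 0.176). Both DESeq2 and the likelihood ratio test called it. Per3 was at 65.7 and 94.9 against 45.5 and 52.1 CPM (log2 fold change -0.72, edgeR adjusted p = 0.190). Per2 had a log2 fold change of -1.05 (edgeR adjusted p = 0.242). Like Tef, Per2, Per3 and Cry2 were highest in K-Ras replicate 2, and without that sample their values were -0.37, -0.45 and -0.72. Nr1d1, which encodes REV-ERB alpha, was at 94.3 and 94.6 CPM in K-Ras and 70.6 and 75.6 CPM in K-Ras Mll4-/- tumours (log2 fold change -0.37, edgeR adjusted p = 0.195), with K-Ras samples nearly equal. With GC and length offsets the value of Nr1d1 was -0.18. Arntl, at 25.2 and 15.2 against 27.9 and 24.9 CPM, overlapped, with a log2 fold change of 0.38 (edgeR adjusted p = 0.467). The other activators of the list, Clock and Npas2, had log2 fold changes of 0.17 (edgeR adjusted p = 0.499) and 0.26 (edgeR adjusted p = 0.809). Clock was higher in both K-Ras Mll4-/- samples, and Npas2 overlapped. The negative median of the list was thus not shared by its activators. Arntl, Clock, Npas2 and Ciart are named here after their values were seen.

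Genes described as driven through D-boxes were listed as 13, of which 6 are also in the core clock list. None was called by the quasi-likelihood test and 4 were lower at an unadjusted p under 0.05, against 10.4% of all genes, with a median log2 fold change of -0.45. In 8 of the 13 the groups did not overlap with the K-Ras Mll4-/- samples lower, and in 0 with these samples higher, against 28.5% and 29.9% of all genes. Among the 7 genes that are in this list alone, 4 were lower without overlap and 2 were lower at an unadjusted p under 0.05, where the shares over all genes are again 28.5% and 10.4%. Of the 4, Nr1i3 had only 12 to 20 reads. Cyp2b10 was at 135 CPM in K-Ras replicate 2 and 17.3 to 30.7 CPM in the other 3 samples. Por and Pdxk had log2 fold changes above 0, at 0.41 and 0.04, and overlapped. Nr1i3, Cyp2b10, Por and Pdxk are named after their values were seen. Usp2, a ubiquitin protease gene, had the smallest p-value of the list. It was at 5.82 and 12.2 CPM in K-Ras and 3.39 and 2.64 CPM in K-Ras Mll4-/- tumours (log2 fold change -1.58, edgeR adjusted p = 0.181), and -0.97 without K-Ras replicate 2. DESeq2 and the likelihood ratio test called it. The same high sample was seen for the cytochrome P450 gene Cyp2a5, named after its values were seen, at 36.5 CPM in K-Ras replicate 2 and 3.14 to 5.33 CPM in the other 3 samples.

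Of the 4 other ROR and REV-ERB receptor genes, which share the ROR element with Rora, none was called. At an unadjusted edgeR p under 0.05, 1 (Nr1d1) was lower, against 10.4% of all genes. Without overlap 3 were lower and 0 higher in the K-Ras Mll4-/- samples, against 28.5% and 29.9% of all genes. The median log2 fold change was -0.37, against -0.01 over all genes. Rorb, a receptor better known from retina and brain, was near its limit of use at 28 to 78 reads, with 2.55 and 1.16 CPM in K-Ras and 1.07 and 0.931 CPM in K-Ras Mll4-/- tumours (log2 fold change -0.89, edgeR adjusted p = 0.367). It was -0.22 without K-Ras replicate 1 and -1.37 without K-Ras replicate 2. Per library, Rora reads per Nr1d1 read were 1.14 and 1.05 in the K-Ras samples and 1.19 and 0.883 in the K-Ras Mll4-/- samples, which overlapped between the groups. Rora reads per read of Nr1d2, the gene of REV-ERB beta, were lower throughout the K-Ras Mll4-/- group, at 0.788 and 0.562 against 0.552 and 0.420. The nearest values, 0.562 and 0.552, were barely apart. Nr1d2 itself overlapped, at 136 and 177 against 152 and 159 CPM (log2 fold change -0.01, edgeR adjusted p = 0.968). The ratio thus mostly restates the Rora log2 fold change of -0.46.

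The hypoxia response genes, to which Bhlhe40 and Bhlhe41 are known to belong, had the highest count at an unadjusted p of the 4 lists. Of 12 such genes, with Bhlhe40 and Bhlhe41 left out, 8 were higher in K-Ras Mll4-/- tumours at an unadjusted edgeR p under 0.05, against 11.4% of all tested genes, and 0 were lower. None was called by the quasi-likelihood test, and the median log2 fold change was 0.74. Car9, a carbonic anhydrase induced by hypoxia, was at 1.41 and 2.63 CPM in K-Ras and 17.7 and 14.6 CPM in K-Ras Mll4-/- tumours (log2 fold change 2.99, edgeR adjusted p = 0.128). Ndrg1, a stress-induced gene, was at 143 and 171 against 601 and 434 CPM (log2 fold change 1.72, edgeR adjusted p = 0.132). In DESeq2, and also in the likelihood ratio test, 6 of the 12 were called, all higher: Car9, Egln3, Ndrg1, P4ha1, Pdk1 and Slc2a1. Over all genes, in either direction, DESeq2 called 10.4% and the likelihood ratio test 9.39%. Bhlhe40 and Bhlhe41 were at 0.27 and -0.59. The lowest values of the list itself were 0.22 (Hif1a) and -0.25 (Ankrd37), named after their values were seen. Bhlhe40 thus lay within the range of the list, and Bhlhe41 below it. Whether they followed these genes was not tested.

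**Figure D4:**
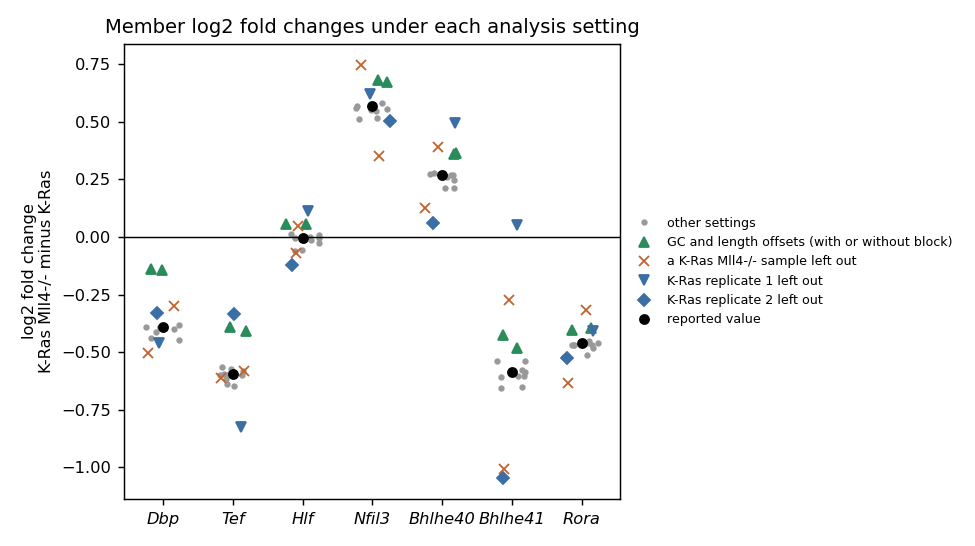
Log2 fold change of each member, K-Ras Mll4-/- minus K-Ras, as reported (black) and under each alternative setting. Dbp, Tef and Rora stay below 0 and Nfil3 and Bhlhe40 above 0 under all 16 alternatives, while Hlf lies around 0 and Bhlhe41 turns to 0.05 without K-Ras replicate 1.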

How the data were processed

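The deposited files hold raw read counts per gene symbol, 1 file per sample. Per the submitters' processing notes, CASAVA 1.4, STAR, HTSeq and the build mm9 were used; the annotation and strand setting are not given in the sources used here. Closing rows that name no gene held 60.1% to 65.6% of each file's total and were left out. The members and gene lists were chosen with earlier results of these data known. Counts were fitted over all 4 samples in edgeR 4.0.16 (R 4.3.3) with filterByExpr, TMM scaling and the robust quasi-likelihood test. P-values were Benjamini-Hochberg adjusted over all 16001 genes, with a threshold of 0.05. The SE is the log2 fold change over the square root of F. Profiles used log2 CPM with a prior count of 2. Alternatives were 3 scalings, 2 filters, the replicate block, GC and length offsets (mgcv 1.9.3, 15863 genes with GENCODE M21 values), DESeq2 1.42.0, the likelihood ratio test, limma-voom (limma 3.58.1), a non-robust fit, and leaving out each sample. The fit was tested on simulated counts. A floor of 3 reads corresponds to 0.0818 to 0.112 CPM and covers counting error only. Named genes were the 7 members, the 2 genes of smallest p in each of the clock, ROR, D-box and hypoxia lists, Per2, Nr1d1, Kmt2d, and for each member the 2 genes with the nearest profile.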

Additional observations from a re-analysis of the deposited data

How the results depend on the processing

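None of the 16 alternatives called any of the 7 members. The number of genes called, 6 as reported, was 44 with no count filter, 1601 with DESeq2, 1503 with the likelihood ratio test and 0 with limma-voom (3159 at an unadjusted p under 0.05), and ranged from 0 to 524 when samples were left out, with 524 without K-Ras replicate 1 and 0 without each of the others. The labels give both groups replicates 1 and 2 but do not say what same-numbered samples share, and their deviations from the group means correlated at 0.21 across genes. A replicate block gave 217 calls, and the block fitted together with the offsets for GC content and length gave 210. The members with an unadjusted p under 0.05, 4 as reported, numbered 5 with the block, where Bhlhe41 joined them (-0.54, SE 0.18). They numbered 1 with the offsets and 2 with offsets and block. Of all 16001 tested genes, 3484 were under that p as reported and 3750 with the block. With the offsets 3582 were, and with offsets and block 3991. Of the 34 clock, D-box, ROR and hypoxia genes, 0 were called as reported, 9 by DESeq2, 8 by the likelihood ratio test and from 0 to 6 when a sample was left out. The 6, called without K-Ras replicate 1, were Car9 (higher) and Ciart, Cry2, Cyp2a5, Cyp2b10 and Per2 (lower). The median of the ROR and REV-ERB list, -0.37 as reported, was -0.22 with the offsets, with and without the block. When a sample was left out it ranged from -0.45 to -0.22, and the hypoxia median, 0.74, from 0.59 to 0.96.

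Signs that turned were those of values near 0 or of genes that rest on K-Ras replicate 1. Hlf was at 0.0075 with no count filter, 0.0010 with the block, 0.056 with the offsets, 0.058 with offsets and block, 0.011 with limma-voom, and from -0.12 to 0.11 when a sample was left out. Bhlhe41 ranged from -1.05 to 0.051 when a sample was left out. Of the genes with a profile near a member's, Phospho2 was at 0.0072 with no count filter, 0.0012 with the block, 0.0092 with limma-voom and from -0.13 to 0.11 with a sample left out. U2surp was at 0.012 with the offsets, 0.013 with offsets and block, and ranged from -0.14 to 0.11. Gm960 ranged from -1.21 to 0.040 and Colec12 from -1.13 to 0.043. The cause of these shifts was not tested. With 2 samples a group, single-gene spread is poorly determined, and the fits without a sample assume that the lone sample varies like the other group.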

Other observations

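For each member the tested genes with the nearest profile over the 4 samples were found, by Euclidean distance between log2 CPM values centred on each gene's mean. Dbp lay nearest to Adgrd1 (distance 0.018) and Ms4a4c (0.027), and Tef to Efcab2 (0.020) and Fmo5 (0.029). Rora lay nearest to Fyn (0.022) and Cyth1 (0.049). Nfil3 lay nearest to Ndufa2 (0.038) and S100a13 (0.080), and Bhlhe40 to Rnd3 (0.025) and Slc9a2 (0.045). Hlf lay nearest to Phospho2 and U2surp, each at 0.012. Bhlhe41 had the fewest neighbours, with 17 genes within 0.2, Gm960 (0.027, from 7 to 22 reads) and Colec12 (0.075) the nearest. Within 0.2 there were 73 genes for Nfil3, 152 for Tef, 314 for Dbp, 329 for Bhlhe40, 330 for Rora and 1232 for Hlf, so with 4 samples a near profile is shared by many genes. Among the members themselves the nearest pairs were Hlf with Bhlhe40 (0.330) and Dbp with Tef (0.335), and the farthest was Nfil3 with Bhlhe41 (1.31).

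Reads of 0610040F04Rik, which overlaps 118 exon bases of Bhlhe40 on the other strand in GENCODE M21, numbered 2 and 3 in the K-Ras samples and 20 and 197 in the K-Ras Mll4-/- samples. Without a known strand setting it is not known for which gene, if any, reads in the shared bases were counted. Bhlhe40 itself had 9040 to 13190 reads per sample.

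Alveolar type 1 markers summed to 1656 and 2316 CPM in the K-Ras samples and 1960 and 1958 CPM in the K-Ras Mll4-/- samples, and pericyte and smooth muscle markers to 314 and 249 against 239 and 207 CPM.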
